A study of Mus musculus with 6 samples.

Results

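De novo fatty acid synthesis, the route by which the liver turns sugar carbon into fat, was followed through 10 genes in the liver arrays of male mouse pups with and without an activated human *SRY* transgene. The genes were the transcription factor genes *Mlxipl* (encoding ChREBP) and *Srebf1* (SREBP-1), the enzyme genes *Acly*, *Acaca*, *Acacb*, *Fasn*, *Elovl6*, *Scd1* and *Me1*, and *Thrsp*, which encodes the lipogenic factor Spot 14. All probes carrying one of these symbols were taken, whatever their values. This gave 8 probes of 7 genes out of 25697 probes and 18138 symbols in the table. *Me1* was found under its older symbol *Mod1*, which made 9 probes in all, and no probe in the table carries the symbol *Acaca* or *Acacb*, so the acetyl-CoA carboxylases were not analysed here.

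Both groups were male FVB/N pups (labelled FVB) at postnatal day 6 with 3 arrays each, described as biological triplicates. The responder line holds 1 copy of a cassette named Signalox-hSRY, inserted at H11, in which the broadly active CAG promoter drives DsRed2 until Cre removes it and human *SRY* with EGFP is expressed in its place. In hSRY-ON pups the cassette had been recombined in the early embryo by Ddx4-Cre from the oocyte, so the transgene was active throughout the body and not in the liver alone, and pups that had not inherited Ddx4-Cre were chosen. The study defines hSRY-OFF mice, the controls here, as those whose cassette was not recombined. The arrays carry no probe assigned to the human transgene, so the labels could not be checked against its level. *SRY*, normally on the Y chromosome, starts testis development.

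In the liver, ACLY cleaves citrate into cytosolic acetyl-CoA, acetyl-CoA carboxylase turns it into malonyl-CoA, and FASN builds palmitate with NADPH supplied in part by ME1. ELOVL6 then lengthens palmitate and SCD1 introduces a double bond. SREBP-1c, which responds to insulin, and ChREBP, which responds to glucose, switch on these genes. ChREBP binds E-boxes together with its partner MLX. The pathway is known to run low in suckling pups, whose milk is rich in fat, and to rise at weaning. The study reports that hSRY-ON pups suckled minimally, lacked milk in their stomachs and grew more slowly than controls. Feeding may thus have differed between the groups, and its part in the differences below was not tested.

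The arrays detected 40.2% to 41.9% of their probes (detection p under 0.01), and their median intensities before normalization lay between 146.9 and 164.7. All 8 hepatocyte marker genes examined were detected. A probe was tested if at least 3 of the 6 arrays detected it, which left 10734 probes, and levels are given as log2 of the background-corrected and quantile-normalized intensity with an offset of 16. A difference is hSRY-ON minus hSRY-OFF on that scale, and p-values from limma were adjusted over all tested probes with a threshold of 0.05.

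Of the 9 probes, 6 were detected on at least 1 array and 4 were tested, namely those of *Mlxipl*, *Srebf1* (1 of its 2 probes), *Acly* and *Elovl6*. The first 3 of these fell in hSRY-ON livers and none rose, while *Elovl6* did not pass the test. The *Srebf1* probe met the filter through its 3 hSRY-OFF arrays alone. It could thus enter the count as a fall but hardly as a rise, and the median below includes it. Across all tested probes 17.2% fell and 15.8% rose. The same 3 probes had all hSRY-ON values below all hSRY-OFF values, which was the case at 24.6% of all tested probes. The median difference of the 4 tested probes was -1.155, against 0.02 over all tested probes. With so few probes tested, the share that fell describes these genes and was not itself tested.

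**Figure D1:**
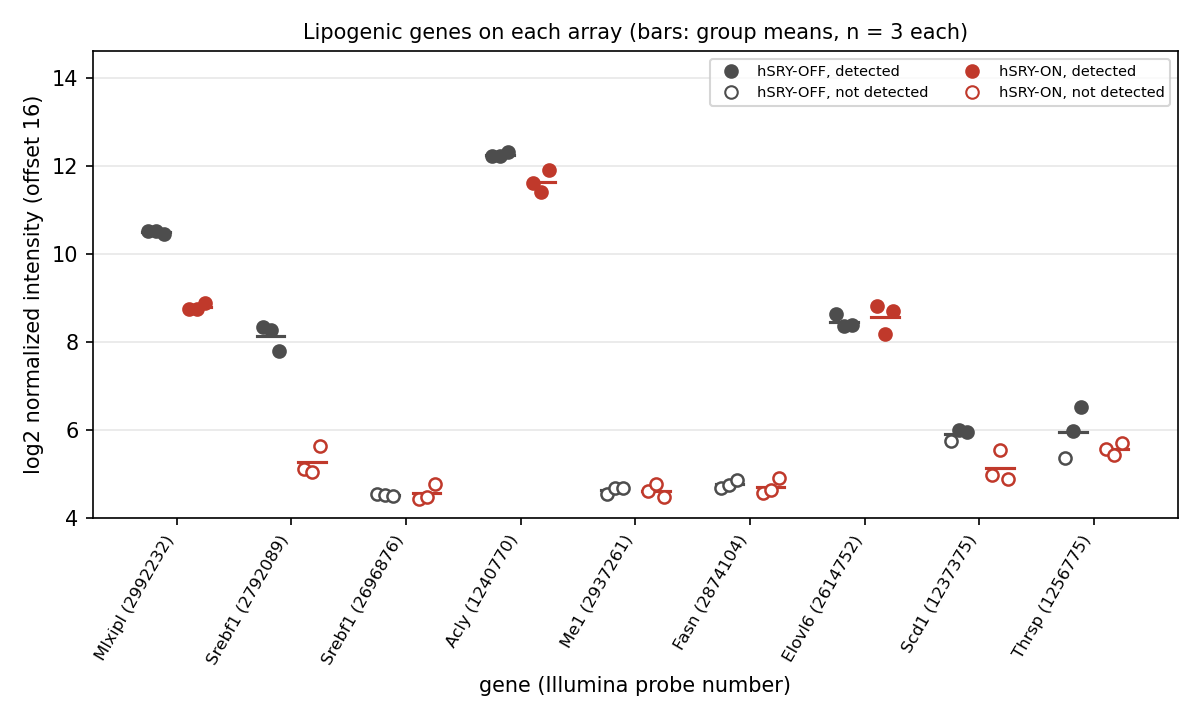
Log2 normalized intensity of each of the 9 probes on each array (vertical axis; hSRY-OFF in grey, hSRY-ON in red, horizontal bars are means of 3 arrays, open symbols were not detected). *Mlxipl*, *Srebf1* (ILMN_2792089) and *Acly* are lower on all hSRY-ON arrays, *Elovl6* overlaps between the groups, and the other 5 probes lie near or under the detection limit. Levels of different probes are not comparable with each other.

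*Mlxipl*, the gene of the glucose-responsive factor ChREBP, fell 3.25-fold in hSRY-ON livers and had the tightest arrays of the tested genes. Its probe (ILMN_2992232) read 10.53, 10.51 and 10.45 on the 3 hSRY-OFF arrays and 8.75, 8.76 and 8.89 on the 3 hSRY-ON arrays (log2 levels). The groups lay far apart relative to their spread, with means of 10.50 ± 0.04 and 8.80 ± 0.08 (SD, n = 3 each). The difference was -1.70 ± 0.11 (SE, 95% interval -1.96 to -1.44, adjusted p = 0.000149). The drop was already visible in the deposited intensities, which were 1775, 1781 and 1307 in hSRY-OFF and 615, 545 and 541 in hSRY-ON livers. It passed the test under every alternative processing run, with differences between -1.76 and -1.46.

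*Mlxipl* has 2 annotated start sites in RefSeq, 17001 bases apart, and its upstream start is the one used by the shorter, highly active form ChREBP-beta in published work. Which start the array probe reports on is not given in the sources used here. The 250 bases before each start are shown because they carry letters that the pathway's own factors are known to bind. The upstream window holds an E-box (CACGTG) 98 bases before the start, and the downstream window holds a sterol regulatory element (TCACNCCAC, the type of site SREBP binds) 136 bases before the start. *Khk*, the ketohexokinase gene described with the glucose-responsive genes below, is shown beside them as another example of an E-box, here 71 bases before its start. All are on the plus strand of mouse GRCm38.p6, from the RefSeq reference and not from FVB/N mice, with the matched letters in capitals.
Mlxipl, upstream start, chr5:135089640-135089889: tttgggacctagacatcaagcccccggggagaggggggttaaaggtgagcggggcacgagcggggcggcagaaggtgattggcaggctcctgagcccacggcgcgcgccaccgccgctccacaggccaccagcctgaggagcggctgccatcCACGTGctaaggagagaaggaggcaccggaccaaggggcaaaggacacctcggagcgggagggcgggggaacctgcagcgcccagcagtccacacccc
Mlxipl, downstream start, chr5:135106641-135106890: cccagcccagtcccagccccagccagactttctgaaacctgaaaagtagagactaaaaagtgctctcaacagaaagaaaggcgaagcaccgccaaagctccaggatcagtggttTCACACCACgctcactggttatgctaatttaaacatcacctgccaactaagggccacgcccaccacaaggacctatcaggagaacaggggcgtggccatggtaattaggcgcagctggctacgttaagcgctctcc
Khk, chr5:30921309-30921558: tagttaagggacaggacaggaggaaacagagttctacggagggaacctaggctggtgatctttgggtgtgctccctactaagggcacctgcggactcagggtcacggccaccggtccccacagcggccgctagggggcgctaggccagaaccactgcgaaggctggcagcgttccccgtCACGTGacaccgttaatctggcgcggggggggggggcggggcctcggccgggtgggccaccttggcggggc

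These letters are not particular to the pathway. On either strand of windows from 250 bases before to 50 after a start, CACGTG was present in 7.15%, TCACNCCAC in 1.24% and the CCAAT box, CCAAT, in 37.4% of 32851 RefSeq promoters. Of the 10 lipogenic genes, 9 had promoters in the table (*Scd1* did not), with 13 windows. The E-box occurred in 1 of them, the sterol element in 1 and the CCAAT box in 8. Among the 65 windows of 51 genes in the pathway lists described below, 8 held the E-box and none the sterol element. Those with an E-box include *Insig1*, *Slc25a1* and *Scap*, which did not pass the test, and *Mlx*, which was not detected. Among genes that fell, *Khk*, *Elovl5* and *Hacd3* held the exact letters CACGTG and *Pklr* and *Gckr* did not. Looser forms of the E-box were not searched for, so their absence is not shown. A relation between these letters and the differences was not tested. A match is a description of the letters and not of a bound site.

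*Srebf1*, which encodes SREBP-1, dropped from a clear signal to below detection. Its probe ILMN_2792089 was detected on all 3 hSRY-OFF arrays, at log2 levels of 8.34, 8.28 and 7.79, and on no hSRY-ON array, where it read 5.11, 5.06 and 5.63. The lowest hSRY-OFF array thus stood more than 2 log2 units above the highest hSRY-ON array. The means were 8.14 ± 0.30 and 5.27 ± 0.32 (SD, n = 3 each). Since the hSRY-ON values lie under the detection limit, the change is given as a bound. Under the main processing it was at least 5.4-fold lower with the transgene on (fitted difference -2.87 ± 0.21, SE, adjusted p = 0.000215). This bound does not carry over to other background corrections. The fitted difference was -2.12 with an offset of 50, -1.88 with that offset and no control information, and -1.33 without correction. Deposited intensities were 482, 480 and 303 against 165, 155 and 162.

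The second *Srebf1* probe (ILMN_2696876) was detected on none of the 6 arrays. Its deposited intensities of 125 to 138 in hSRY-OFF and 126 to 137 in hSRY-ON livers overlapped. It gives no level to set beside the first probe, and which *Srebf1* transcripts each probe matches, SREBP-1a or SREBP-1c, is not given in the sources used here.

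*Acly*, the enzyme gene at the head of the pathway, fell by less. Its probe (ILMN_1240770) read 12.23, 12.22 and 12.31 in hSRY-OFF and 11.62, 11.40 and 11.91 in hSRY-ON livers. The hSRY-ON arrays were all lower but spread more widely, with means of 12.25 ± 0.05 and 11.64 ± 0.26 (SD, n = 3 each). The difference was -0.61 ± 0.15 (SE, 95% interval -0.97 to -0.25, adjusted p = 0.0207), or 1.53-fold lower. This call was lost in 4 of the 6 fits that omit an array: leaving out hSRY-OFF replicate 1, 2 or 3 gave an adjusted p of 0.0684, 0.0607 or 0.0679, and leaving out hSRY-ON replicate 1 gave 0.0591. The difference stayed between -0.78 and -0.48 under all alternatives.

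*Elovl6*, whose enzyme lengthens palmitate, did not differ beyond its spread. It read 8.63, 8.35 and 8.38 in hSRY-OFF and 8.81, 8.17 and 8.71 in hSRY-ON livers (ILMN_2614752), and hSRY-ON replicate 2 lay below all controls while the other 2 hSRY-ON arrays lay above them. The difference of 0.11 ± 0.19 (SE, adjusted p = 0.703) has a 95% interval from -0.34 to 0.55. A change of the size seen at *Acly* in the downward direction lies outside this interval. The sign turned to -0.02 (adjusted p = 0.959) without hSRY-ON replicate 1.

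*Scd1*, the stearoyl-CoA desaturase gene, was too dim to be tested under the chosen filter. It was detected on 2 hSRY-OFF arrays and no hSRY-ON array (ILMN_1237375), with levels of 5.74, 6.01 and 5.96 against 4.97, 5.55 and 4.89. The groups did not overlap, and hSRY-ON replicate 2 came closest to the controls. With hSRY-ON arrays set at their detection limits, the fall computed for *Scd1* was 1.15-fold under the main processing. It is not a strict bound, since hSRY-OFF replicate 1 did not detect the probe either. With every probe tested its difference of -0.77 had an adjusted p of 0.0405, and with probes kept at a detection p under 0.05 the adjusted p was 0.0236.

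*Thrsp* was dim in the same way but overlapped between groups. Its probe (ILMN_1256775) was detected on 2 hSRY-OFF arrays and no hSRY-ON array, at 5.37, 5.97 and 6.53 against 5.57, 5.44 and 5.70. All 3 hSRY-ON values lay above the lowest control. The calculation made for *Scd1* gave a fall of 1.19-fold here, although the groups overlapped. Under the 2 filters that admitted it, the difference of -0.38 had adjusted p-values of 0.498 and 0.325.

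*Fasn* and *Me1* gave no signal above background in either group. The deposited intensities of *Fasn* (ILMN_2874104) were 146, 151 and 141 in hSRY-OFF and 140, 137 and 141 in hSRY-ON livers, and none of its detection p-values, from 0.157 to 0.683, was near the threshold. *Me1* (ILMN_2937261) read 137, 148 and 135 against 143, 144 and 121. For both genes a difference between the groups was not detectable at this signal, which says nothing of its size.

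**Figure D2:**
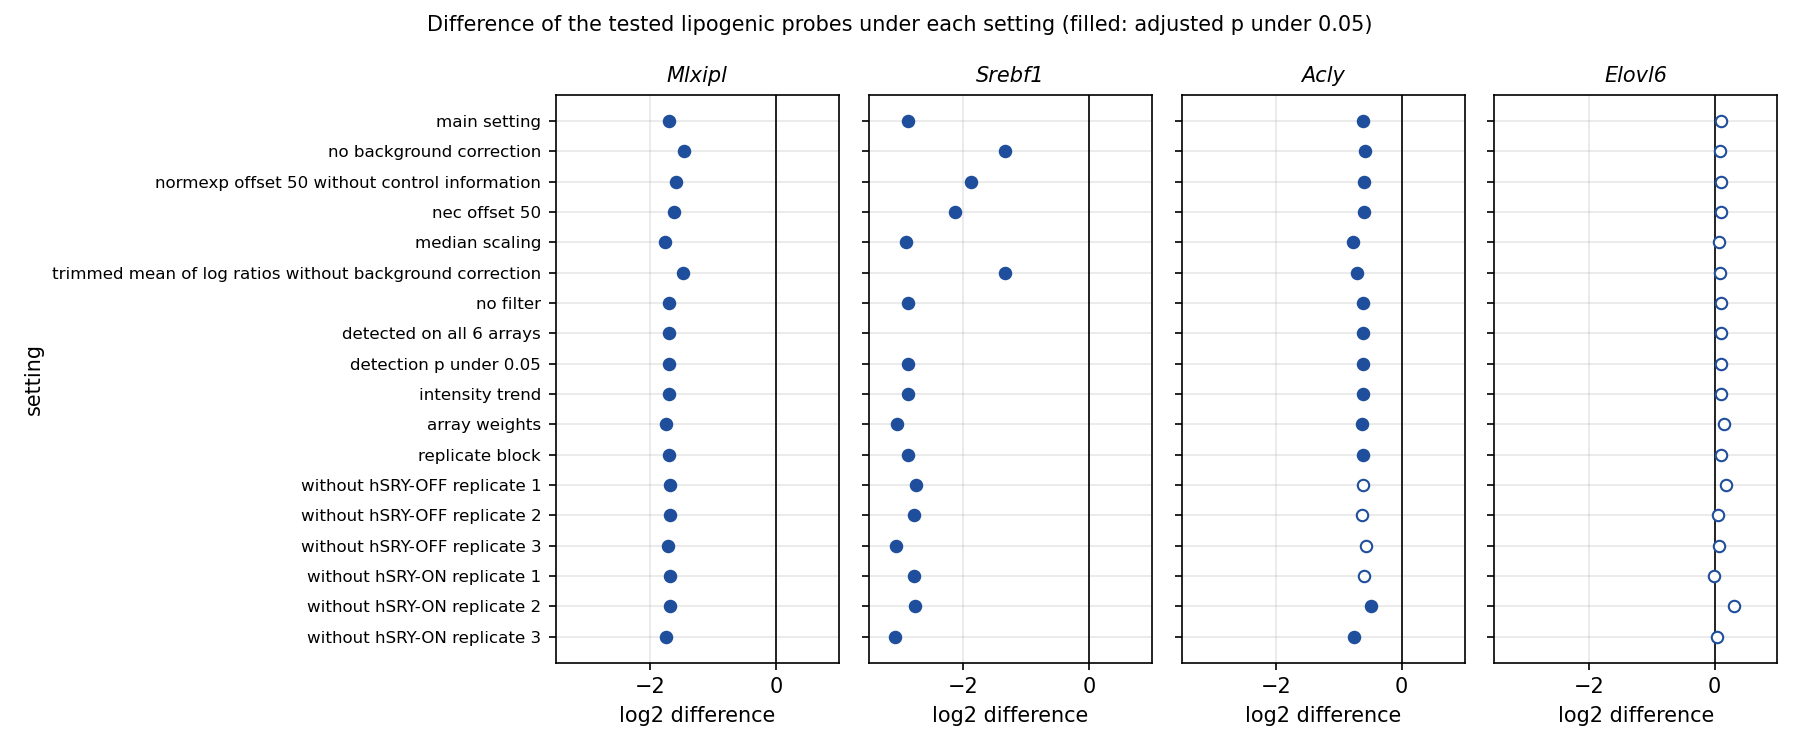
Difference of the 4 tested probes, hSRY-ON minus hSRY-OFF (horizontal axes, log2 units), under the main setting and each alternative (vertical axis); filled points have an adjusted p under 0.05. *Mlxipl* and *Srebf1* are filled wherever tested, the size for *Srebf1* ranges from -3.08 to -1.33, *Acly* is open in 4 of the settings that leave out 1 array, and *Elovl6* is open throughout.

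The liver samples also differed in the markers of their cell types. The counts called below stand beside 17.2% lower and 15.8% higher among all tested probes. The summed linear intensity of the hepatocyte markers was 160000 to 164000 on hSRY-OFF and 145000 to 152000 on hSRY-ON arrays, and 5 of their 10 probes, of *Alb*, *Ttr*, *Cebpa* and *Serpina1a*, fell. Most of this sum came from *Ahsg*, *Trf*, *Apoa1* and *Ttr*, and *Ahsg* (ILMN_2764036) read near the highest intensity of each array. The *Alb* probe was dim, with deposited intensities of 202 to 448. Stellate cell markers summed to 7280 to 8080 and 18400 to 20300, with 5 of 10 probes higher (4 of *Acta2* and 1 of *Des*) and 1 lower (*Lrat*). Erythroid markers summed to 17400 to 35800 and 33700 to 46000, with 1 of 5 tested probes higher. Macrophage markers summed to 6360 to 8570 and 4340 to 5620, with 4 of 9 tested probes lower and 1 higher. The *Lrat* probe and 1 of these 4 lower probes (*Clec4f*, ILMN_2876653) met the filter through the hSRY-OFF arrays alone. Both could enter the counts as falls but hardly as rises. Endothelial markers summed to 2670 to 3200 and 3090 to 3900 with 3 of 6 tested probes higher, neutrophil markers to 41600 to 47500 and 28200 to 84500 with none of 9 called, and biliary markers to 174 to 222 and 166 to 213 with the 1 tested probe not called. The part of these shifts in the lower *Mlxipl*, *Srebf1* and *Acly* signal was not tested, and in whole liver fewer hepatocytes and less RNA per hepatocyte cannot be told apart. All 7 adipocyte markers, including *Adipoq*, *Plin1* and *Lep*, were undetected on every array, so fat cells, which also make fatty acids, gave no measurable signal in either group.

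The genes around the pathway were examined through 5 lists that hold 57 genes, of which 55 had a probe and 46 a tested one. Of the 63 tested probes, 26 (19 genes) fell, 8 (6 genes) rose and 29 did not pass the test, and the median difference was -0.14. The *Hacd2* probe, among the falls, met the filter through the hSRY-OFF arrays alone and could hardly have entered as a rise. Over all tested probes 17.2% fell and 15.8% rose. Of the 34 calls, 24 held at an adjusted p of 0.05 under every alternative fit that tested them. Named after their values were seen are *Gpd1*, *Slc2a2*, *Mlxip*, *Nr1h2*, *Ppargc1b*, *Mbtps1*, *Scap*, *Elovl1*, *Elovl2*, *Scd2*, *Tecr*, *Hacd2*, *Hacd3*, *Pdha1*, *Mpc2*, *Aacs* and *Prkab1*.

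**Figure D3:**
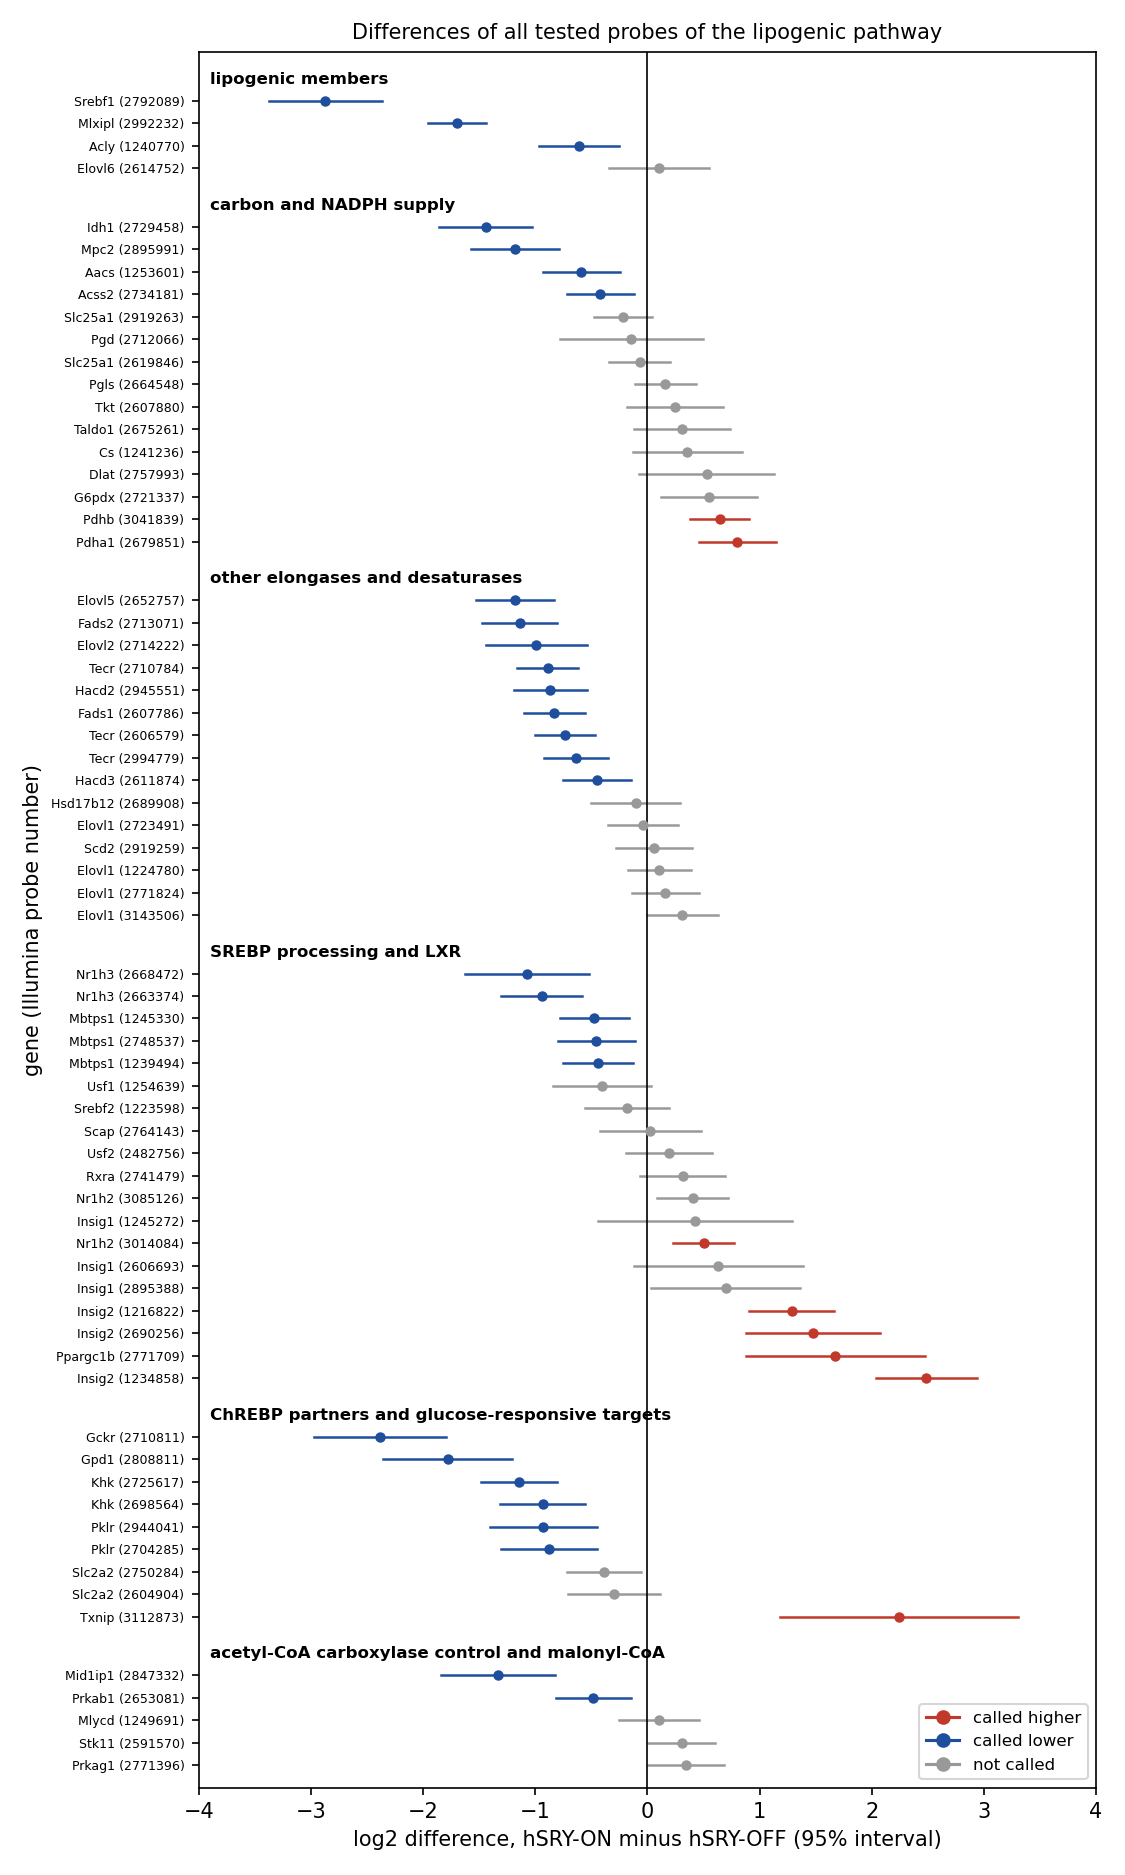
Difference (hSRY-ON minus hSRY-OFF, log2 units, horizontal axis) with its 95% interval for every tested probe of the 10 lipogenic genes and the 5 surrounding lists (vertical axis); blue is lower, red higher and grey not past the threshold. The elongases and desaturases hold blue and grey points and no red one, the glucose-responsive list is mostly blue with *Txnip* far to the right, and the SREBP processing list is split.

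Of the list of ChREBP's partners and glucose-responsive genes, 6 of 9 tested probes (*Gckr*, *Gpd1*, *Khk* and *Pklr*) fell and 1 (*Txnip*) rose, beside 17.2% and 15.8% over all tested probes, and the median difference was -0.93. No probe of the partners was among those tested. *Gckr*, which encodes a regulator of hepatic sugar phosphorylation, had the smallest adjusted p of those that fell. It read 11.08, 11.30 and 11.30 in hSRY-OFF and 8.33, 8.82 and 9.37 in hSRY-ON livers, 5.23-fold lower (difference -2.39 ± 0.25, SE, adjusted p = 0.000753). *Gpd1*, which makes glycerol 3-phosphate for triglycerides, differed by -1.78 (adjusted p = 0.00219).

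*Khk*, the fructose-phosphorylating enzyme gene whose promoter is printed above, fell at both probes. The first (ILMN_2725617) read 11.98, 12.29 and 11.96 in hSRY-OFF and 10.94, 11.08 and 10.78 in hSRY-ON livers (difference -1.15 ± 0.15, SE, adjusted p = 0.00157), with no overlap between the groups. The second (ILMN_2698564) differed by -0.94 ± 0.16 (adjusted p = 0.00533). *Pklr*, the liver pyruvate kinase gene, read 8.45, 8.96 and 8.53 against 7.82, 7.96 and 7.53 at ILMN_2704285, a difference of -0.88 ± 0.18 (adjusted p = 0.0108). Another *Pklr* probe (ILMN_2944041) differed by -0.93 ± 0.20 (adjusted p = 0.0131, but 0.0528 without hSRY-OFF replicate 2), and the third was not detected. Without background correction this second difference was -0.51.

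*Txnip*, a gene known to be switched on by ChREBP and its relative MondoA when glucose is high, went the other way. Its levels were 10.41, 10.78 and 10.54 in hSRY-OFF and 13.14, 13.64 and 11.68 in hSRY-ON livers. All hSRY-ON arrays were higher, replicate 3 by much less than the others. The rise was 4.74-fold (difference 2.24 ± 0.45, SE, adjusted p = 0.00945).

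ChREBP's obligate partner *Mlx* (2 probes) and the related *Mlxip* (4 probes) were detected on no array. *Slc2a2*, the main glucose transporter gene of the liver, did not pass the test at its 2 tested probes, and the other was not detected. At ILMN_2750284 the groups did not overlap and the difference was -0.39 (adjusted p = 0.0724, between 0.0343 and 0.219 over the alternatives).

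Of 19 tested probes of SREBP processing and LXR genes, 5 rose (3 of *Insig2*, 1 each of *Nr1h2* and *Ppargc1b*) and 5 fell (2 of *Nr1h3*, 3 of *Mbtps1*), with a median difference of 0.31. Over all tested probes 15.8% rose and 17.2% fell. INSIG proteins hold SREBP and its escort SCAP in the endoplasmic reticulum. *Insig2* rose at all 3 of its probes. At ILMN_1234858 it read 6.52, 6.58 and 7.12 in hSRY-OFF and 9.42, 9.23 and 9.04 in hSRY-ON livers, 5.62-fold higher (difference 2.49 ± 0.19, SE, adjusted p = 0.00025). The other *Insig2* probes differed by 1.29 ± 0.16 (adjusted p = 0.00146) and 1.48 ± 0.25 (adjusted p = 0.00506). Without background correction the 3 differences were 1.64, 1.21 and 0.95, all past the threshold.

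*Insig1*, a gene that SREBP itself is known to switch on, was not called at any of its 3 tested probes. Their differences were 0.43, 0.63 and 0.70 with adjusted p-values of 0.41, 0.166 and 0.0977, and at ILMN_1245272 the means were 9.69 ± 0.59 and 10.12 ± 0.59 (SD, n = 3 each). The calls depended on hSRY-ON replicate 3 and on weighting: ILMN_2895388 was higher by 1.003 (adjusted p = 0.011) without that array and by 0.94 (adjusted p = 0.0103) with array weights, and ILMN_2606693 by 0.97 (adjusted p = 0.0369) with array weights. *Srebf2*, the gene of the cholesterol-directed SREBP-2, differed by -0.18 ± 0.16 (SE, adjusted p = 0.414), from 8.36 ± 0.23 to 8.17 ± 0.17 (SD, n = 3 each).

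*Nr1h3*, the gene of LXR-alpha, a receptor known to activate *Srebf1*, fell at both probes. ILMN_2663374 read 11.47, 11.63 and 11.30 in hSRY-OFF and 10.62, 10.28 and 10.66 in hSRY-ON livers, without overlap (difference -0.94 ± 0.15, SE, adjusted p = 0.00414). ILMN_2668472 differed by -1.07 ± 0.24 (adjusted p = 0.013), and by -0.39 (adjusted p = 0.0205) without background correction. *Nr1h2*, which encodes LXR-beta, differed by 0.50 (adjusted p = 0.0159) at 1 probe, a call lost without hSRY-OFF replicate 1 or 2 (adjusted p up to 0.0691), and by 0.41 (adjusted p = 0.0552, from 0.0101 to 0.178 over the alternatives) at the other. *Ppargc1b*, a coactivator gene, differed by 1.68 ± 0.34 (adjusted p = 0.0097), and by 1.09 to 2.07 over the alternatives. The 3 called probes of *Mbtps1*, the protease that first cleaves SREBP, differed by -0.47 to -0.44, and each lost its call under 5 to 10 alternatives.

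**Figure D4:**
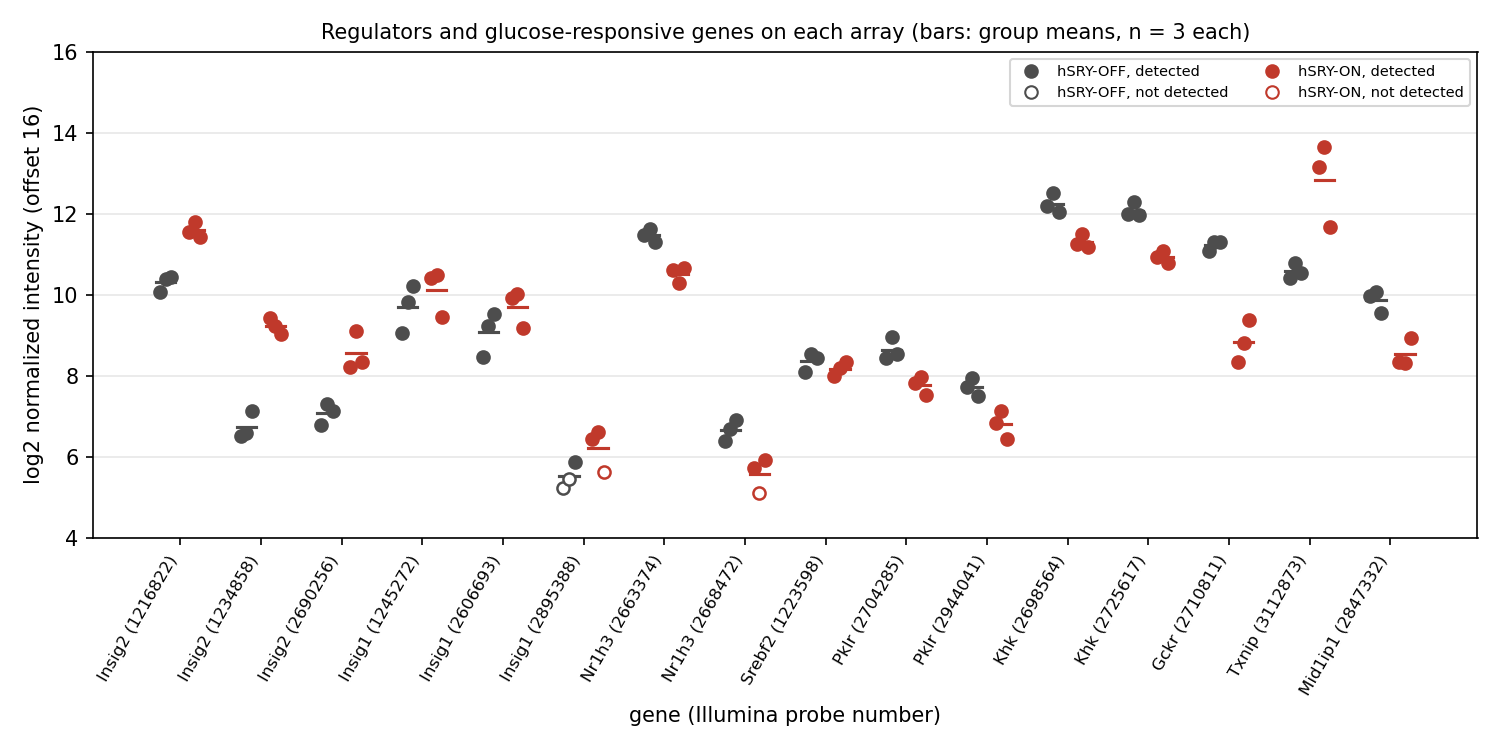
Log2 normalized intensity on each array (vertical axis) for regulators and glucose-responsive genes (horizontal axis, probe number in brackets; grey hSRY-OFF, red hSRY-ON, bars are means of 3 arrays, open symbols not detected). *Insig2* and *Txnip* lie higher and *Nr1h3*, *Pklr*, *Khk*, *Gckr* and *Mid1ip1* lower on all hSRY-ON arrays, while *Insig1* and *Srebf2* overlap between the groups.

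The elongases and desaturases other than *Elovl6* and *Scd1* fell at 9 of 15 tested probes, from 7 genes, and rose at none, beside 17.2% and 15.8% over all tested probes. Among the 9, the *Hacd2* probe met the filter through the hSRY-OFF arrays alone. It could thus enter the count as a fall but hardly as a rise. Their median difference was -0.64, or -0.46 with *Hacd2* at its bound. *Elovl5*, an elongase of polyunsaturated fatty acids, read 13.68, 13.80 and 13.72 in hSRY-OFF and 12.37, 12.45 and 12.82 in hSRY-ON livers (difference -1.18 ± 0.15, SE, adjusted p = 0.00149). The desaturase gene *Fads2* read 12.18, 12.33 and 12.21 against 10.97, 10.98 and 11.35 (difference -1.14 ± 0.14, adjusted p = 0.0015). *Fads1*, whose enzyme acts after that of *Fads2* on the same fatty acids, read 13.90, 14.06 and 13.92 against 13.07, 13.09 and 13.23 (difference -0.83 ± 0.12, adjusted p = 0.00235). None of these 3 genes overlapped between the groups. *Elovl2* and 3 enzyme genes of the elongation cycle (*Tecr*, *Hacd2* and *Hacd3*) also fell, *Hacd2* by a bound of at least 1.38-fold under the main processing. The fitted difference of *Hacd2* was between -0.98 and -0.27 over the alternatives. The size for *Elovl2* was between -1.09 and -0.40 over the alternatives. *Hacd3* lost its call under 5 alternatives, without hSRY-OFF replicate 1 or 2, without hSRY-ON replicate 1 or 3 and with the replicate block (adjusted p up to 0.126), and *Hacd2* under 1 (adjusted p = 0.0601). *Scd2*, the relative of *Scd1*, differed by 0.06 (adjusted p = 0.784), and the 4 probes of *Elovl1* were not called.

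Of 15 tested probes of genes that supply carbon and NADPH, 4 fell and 2 rose, with a median difference of 0.16. Over all tested probes the shares were 17.2% and 15.8%. *Idh1*, a cytosolic source of NADPH, read 11.75, 11.93 and 11.79 in hSRY-OFF and 10.61, 10.01 and 10.51 in hSRY-ON livers, 2.72-fold lower (difference -1.44 ± 0.18, SE, adjusted p = 0.00137). *Pdhb*, a subunit of pyruvate dehydrogenase, read 9.24, 9.33 and 9.29 against 10.02, 9.92 and 9.85 (difference 0.65 ± 0.11, adjusted p = 0.00531), and *Pdha1*, the partner subunit, differed by 0.80 (adjusted p = 0.00632). *Mpc2*, a subunit of the mitochondrial pyruvate carrier, differed by -1.18 (adjusted p = 0.00247) and *Aacs*, which activates acetoacetate, by -0.59 (adjusted p = 0.0195). The *Aacs* call was lost without hSRY-OFF replicate 1 or 3 and without hSRY-ON replicate 1 or 2 (adjusted p up to 0.0641).

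*Acss2*, which makes acetyl-CoA from acetate, differed by -0.42 ± 0.13 (SE, adjusted p = 0.0404), a call that 7 alternatives did not keep. *Slc25a1*, the mitochondrial citrate carrier that feeds ACLY, differed by -0.07 (adjusted p = 0.683) and -0.22 (adjusted p = 0.161) at its probes. For the pentose phosphate enzymes, *G6pdx* differed by 0.55 ± 0.18 (adjusted p = 0.0536, between 0.0442 and 0.156 over the alternatives). *Pgd* read 11.67, 11.48 and 11.68 in hSRY-OFF and 11.22, 11.05 and 12.13 in hSRY-ON livers, where replicate 3 stood above every other array. Its difference of -0.14 ± 0.27 (SE, adjusted p = 0.717) became -0.48 (adjusted p = 0.0305) without hSRY-ON replicate 3 and 0.06 without hSRY-ON replicate 2. At *G6pdx* too hSRY-ON replicate 3 was the highest array, at 9.36 against 8.78 on both others of its group.

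Among genes that act on acetyl-CoA carboxylase or on malonyl-CoA, 2 of 5 tested probes fell and none rose, with a median of 0.10, beside 17.2% lower and 15.8% higher over all tested probes. *Mid1ip1*, whose product promotes polymerisation of acetyl-CoA carboxylase and binds Spot 14, read 9.98, 10.07 and 9.54 in hSRY-OFF and 8.34, 8.31 and 8.94 in hSRY-ON livers. It was 2.52-fold lower, with hSRY-ON replicate 3 nearest to the controls (difference -1.33 ± 0.22, SE, adjusted p = 0.00421). *Prkab1*, a subunit of AMP-activated protein kinase, differed by -0.48 (adjusted p = 0.0369) and lost the call under 6 alternatives. *Mlycd*, which degrades malonyl-CoA, differed by 0.10 ± 0.15 (SE, adjusted p = 0.633). *Cpt1a*, the carnitine transferase that malonyl-CoA inhibits, was detected on no array with its probe here.

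Many other probes correlated with *Mlxipl* over the arrays. Over the 6 arrays, 827 of 10734 tested probes had a Pearson correlation above 0.95 with it. The points share the 6 arrays and the split into 2 groups. The 3 symbols closest to it were *Rogdi* (r = 0.9989), *Keg1* (r = 0.9988) and *D630003M21Rik* (r = 0.9987). *Rogdi* differed by -1.64 ± 0.12 (SE) and *Keg1* by -4.51 ± 0.11. Among the lipogenic genes, r was 0.993 for *Srebf1*, 0.912 for *Acly* and -0.215 for *Elovl6*. These correlations are a description over 6 arrays in 2 groups. A difference between the groups that is large beside its spread gives a high r by itself. The probes of *D630003M21Rik* and *Srebf1* used here were detected on no hSRY-ON array.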

How the data were processed

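Liver RNA of 3 hSRY-OFF and 3 hSRY-ON pups was hybridised to Illumina MouseRef-8 BeadChips, 1-colour arrays. The deposited table holds, per probe and array, a mean bead intensity on a linear scale that the authors had not normalized or background-corrected, and a deposited detection p-value, the rank of the probe among the array's negative controls. The scanner software version is not given in the sources used here. The study names the count package TCC for testing and the submitters' processing notes name limma. Because intensities are not counts, no count model was used. Groups and replicate numbers come from the labels, and all columns matched a sample (0 unmatched).

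In R 4.3.3 with limma 3.58.1, background was inferred from the detection p-values (nec, offset 16), followed by quantile normalization and log2. The offset shrinks differences of dim probes. Probes that 3 or more of the 6 arrays, of whichever group, detected at p under 0.01 were fitted with lmFit and eBayes without covariates. P-values are two-sided, adjusted by Benjamini-Hochberg over 10734 probes. The fit was tested on simulated data. For a probe undetected throughout a group, "at least" folds set each array of that group at the higher of its lowest detected signal and the probe's own. The other group keeps its own mean, and these folds hold under the main processing alone. Whether the pups came from separate litters is not stated in the labels, and the number of arrays limits the precision. The study calls the array controls age-matched, and elsewhere its controls are littermates without the cassette. By its account oocyte Cre recombines the cassette whatever the pup itself inherits. Pups with an unrecombined cassette would then come from other crosses, and litter and transgene could not be told apart.

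The lipogenic genes, the pathway and marker lists and the tests were chosen with earlier results of these data known. Named were all lipogenic genes, a set of pathway genes named whatever their values, the smallest adjusted p per list and direction, and the 3 symbols most like *Mlxipl*. From the pathway lists 2 genes are not reported here and were left out of the list counts. Symbols were matched through RefSeq synonyms (*Tecr*, *Hacd2*, *Hacd3* and *Mpc2* are listed as *Gpsn2*, *Ptplb*, *Ptplad1* and *Brp44*), and each probe of a gene was tested on its own. Promoters come from RefSeq (GRCm38.p6). Alternatives changed the background correction, offset, scaling, filter, probe choice, threshold and model, added the replicate block and left out each array.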

Additional observations from a re-analysis of the deposited data

How the results depend on the processing

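*Mlxipl* and *Srebf1* passed the threshold under every alternative in which they were tested, and 2 to 4 lipogenic probes fell and 0 rose. The *Srebf1* probe met the main filter through the hSRY-OFF arrays alone, so its place in these counts is a description. The median difference of the lipogenic probes was -0.96 without background correction on the same probes. Other filters, which change which probes enter, gave -0.50 (no filter, over the 8 probes without *Me1*), -0.61 (detection on all 6 arrays, where *Srebf1* is not tested) and -0.69 (detection p under 0.05). At an adjusted p under 0.01, 16 pathway probes fell, and of the 8 that rose at 0.05 all but the *Nr1h2* probe stayed past the threshold. Among all tested probes 974 fell and 695 rose at 0.01. Leaving out 1 array gave 1142 to 2122 falls and 894 to 1945 rises over all tested probes. The lowest counts were without hSRY-OFF replicate 1 (1142 and 894) and hSRY-OFF replicate 2 (1190 and 974). Signs turned for *Elovl6* (-0.0172 without hSRY-ON replicate 1) and *Pgd* (0.06158 without hSRY-ON replicate 2), neither past the threshold there, whereas *Pgd* was past it without hSRY-ON replicate 3 (-0.4785, adjusted p = 0.0305). Over the fits that leave out 1 array these ranged from -0.0172 to 0.3035 and from -0.4785 to 0.06158. With the threshold kept at 0.05, 10 of the 34 pathway calls were lost under at least 1 alternative. The cause was not tested. Signal over background limits *Fasn*, *Me1*, *Scd1*, *Thrsp*, *Mlx* and the second *Srebf1* probe.

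The replicate numbers were not taken to pair the pups. After normalization, deviations of same-numbered arrays correlated by 0.02, 0.10 and 0.05, and not every array correlated best with its own number. With 3 arrays per group this cannot exclude a pairing. Before normalization, replicate 3 had the lowest median intensity in each group, at 147.3 in hSRY-OFF and 146.9 in hSRY-ON. With the replicate block, 1645 of all tested probes fell and 1568 rose, and 3 lipogenic probes fell, as without it. Of the pathway probes 21 fell under the block, against 26 without it, and 8 rose.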
